A study of Homo sapiens with 24 samples.

Results

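The HOX clusters are 4 groups of homeobox genes, HOXA on chromosome 7, HOXB on chromosome 17, HOXC on chromosome 12 and HOXD on chromosome 2, and HOTAIR is a long non-coding RNA transcribed from the opposite strand within HOXC. The members were taken from a list of 39 gene names, and 37 of them had a row among the 51715 genes of the deposited tables, 9 genes from each cluster and HOTAIR. HOXA10 and HOXB7 could not be matched by identifier and were not analysed here. RNA was sequenced from 3 human cell lines. A-431 is an epidermoid carcinoma line, U-2 OS an osteosarcoma line and U-251MG a glioblastoma line. From each, poly(A)-selected libraries were made of total RNA and of RNA from the cytoplasmic fraction, 4 in each group by the labels and 24 altogether, described by the submitters as biological replicates. The labels name no treatment, and each line stands for 1 tumour, so a difference between lines cannot be read as a difference between tissues.

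HOX proteins are transcription factors that give cells their position along the body axis. Within a cluster the genes are numbered by their order along the chromosome, and in the embryo low-numbered (anterior) genes are active earlier and nearer the head than high-numbered (posterior) ones. Genes with the same number in different clusters are paralogues with closely related homeodomains. Adult cells keep part of this code, Polycomb proteins hold unused stretches silent, and HOTAIR is known as an RNA that binds Polycomb and demethylase complexes and has been linked to repression of HOXD genes.

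The clusters also encode microRNAs, short RNAs that pair with messenger RNAs through their seed (bases 2 to 8). Those of the miR-196 and miR-10 families are shown since HOX messenger RNAs are among their known targets. The mature sequences, from RefSeq, have the seed in capitals.
hsa-miR-196a-5p: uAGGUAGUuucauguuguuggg
hsa-miR-196b-5p: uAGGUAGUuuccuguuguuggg
hsa-miR-10a-5p: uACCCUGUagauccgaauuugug
The miR-196 sequences share 1 seed. Its reverse complement ACTACCT, searched on the transcript strand only, was present in the 3′ UTR of 7 of 36 members with an annotated 3′ UTR (13 sites), against 6.75% of 17966 annotated 3′ UTRs. The members were HOXA5, HOXA7, HOXA9, HOXB1, HOXB6, HOXB13 and HOXC8. HOXA7 held 4 of these sites, HOXC8 3 and HOXA9 2. The miR-10a match ACAGGGT was present in 2 of the 36 members, HOXA3 and HOXB3, a smaller share than the 12% of all 3′ UTRs. Lengths differ between 3′ UTRs, so these shares only describe them. In the following sites, on the transcript strand, capitals mark the bases opposite the seed.
HOXA7, chr7:27194049-27194070, minus strand: cctactcccctaaaACTACCTa
HOXA9, chr7:27202873-27202894, minus strand: acaaaaggaaagaaACTACCTt
HOXC8, chr12:54405279-54405300, plus strand: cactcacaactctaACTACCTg
HOXB8, chr17:46690132-46690153, minus strand: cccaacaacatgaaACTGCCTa
HOXB3, chr17:46626829-46626851, minus strand: tgacttaacgtgaaaACAGGGTa
Coordinates are those of GRCh37. The HOXB8 window does not hold the 7-letter match, but 22 of its 22 bases pair with miR-196a, 21 of them as Watson-Crick pairs and 1, at position 5 from the 5′ end of the microRNA, as a G-U pair. As many pairs were found without gaps in 2 of 17966 3′ UTRs. The HOXA7 site shown forms 15 Watson-Crick and 2 G-U pairs with miR-196a. Mature microRNAs were not measured in these libraries. The rows of the hairpins MIR196A1 (chr17:46709852-46709921), MIR196A2 (chr12:54385522-54385631), MIR196B (chr7:27209099-27209183) and MIR10B (chr2:177015031-177015140) held 0 counts in every library. Reads had to lie wholly within the exons of a gene to be counted, and these hairpins are shorter than a read or barely longer. Their 0 counts therefore do not show that the precursors were absent. A match describes the sequence and not a binding event.

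Total gene counts per library ranged from 19918911 to 32394170, with a median of 27407478. A further 14.2% to 21.9% of reads lay outside exons or only partly in them. Cytoplasmic U-2 OS library 13 had the highest such share and matched no entry in the study's table of read totals. The study removed 1 cytoplasmic U-2 OS sample with nuclear material without saying which deposited library it was. Library 13 was therefore left out, and the cytoplasmic U-2 OS group held 3 libraries. Markers followed the labels in part. EGFR was at 16090 CPM (counts scaled to a library total of 1000000) in total RNA of A-431 and at 37.5 in that of U-2 OS. Of 6 epidermal markers, 5 were called higher in A-431 than in U-251MG, but 4 higher and 2 lower in A-431 than in U-2 OS. The 2 were the keratin genes KRT14 and KRT17, KRT17 being at 459.1 CPM in U-2 OS and at 108.3 in A-431. Of 6 glioblastoma markers, 5 were called higher in U-251MG than in U-2 OS (FABP7, GFAP, S100B, SOX2 and VIM). The neural marker NES was higher in U-2 OS than in U-251MG (172.9 and 49.3 CPM). Of 5 osteoblast-line markers tested, COL1A1 was called higher in U-2 OS than in U-251MG. CDH11 and COL1A2 were higher in U-251MG than in U-2 OS (COL1A2 at 587.1 and 0.60 CPM). Other defining markers were low or absent: GFAP was at 2.62 CPM in U-251MG, the osteoblast factor SP7 was at most at 0.132 CPM in a U-2 OS total RNA library, and KRT14 was at 0.11 CPM in A-431.

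For these CPM the library totals were first adjusted by edgeR's TMM factors, which correct for genes that take a large share of a library. Between genes they are compared as CPM per kb of annotated exon. Exon lengths and shared exons were taken from a GENCODE annotation later than the Ensembl one used for counting. They can therefore include exons that were not counted. The deposited RPKM values count reads in another way, and the RPKM that corresponds to 1 read of the same gene varied by more than 1.5 times between libraries for 32 of 34 members that could be examined. HOXA13 in U-2 OS total RNA, for example, ranged from 3.56 to 32.3 RPKM while its CPM ranged from 11.6 to 13.1. Reads were counted without regard to strand, so that a gene and its antisense partner cannot be told apart, and exons shared by several genes went uncounted. Some exon sequence was shared with another gene in 18 members, more than 10% of it in 9 of them. Differences between lines were tested with edgeR's quasi-likelihood test with Benjamini-Hochberg adjustment over all genes tested, and were called at an adjusted p below 0.001 together with a log2 ratio of at least 1. The comparisons share cell lines with one another and are not independent.

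In every line a large part of the clusters was expressed. Of the 37 members, 28 had a median RPKM of at least 1 in U-2 OS total RNA, 23 in U-251MG and 23 in A-431. Over all genes this share was 35.6%, 31.6% and 31.9%. At a median of at least 1 CPM per kb the members numbered 21, 17 and 17. By CPM per kb, U-2 OS was led by HOXB9 (21.7), HOXC13 (11.2) and HOXA9 (10.5). U-251MG was led by HOXB9 (13.2), HOXC10 (9.67) and HOXD10 (7.32). A-431 was led by HOXA9 (32.8), HOXB9 (9.52) and HOXC13 (9.16). By median RPKM the order differed, with HOXC10 (75.5), HOXC6 (45.8) and HOXC9 (44.8) first in U-2 OS, HOXC10 (74.8), HOXD11 (49.6) and HOXD10 (29.2) in U-251MG, and HOXA9 (137), HOXD8 (22.6) and HOXB9 (19.4) in A-431. At the other end HOXB1 had 0 counts in all 24 libraries, which allows up to 3 counts in each. HOXC12 did not exceed 0.0351 CPM in any library, HOXD12 0.181, HOXB4 0.832 and HOXD4 1.03.

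**Figure D1:**
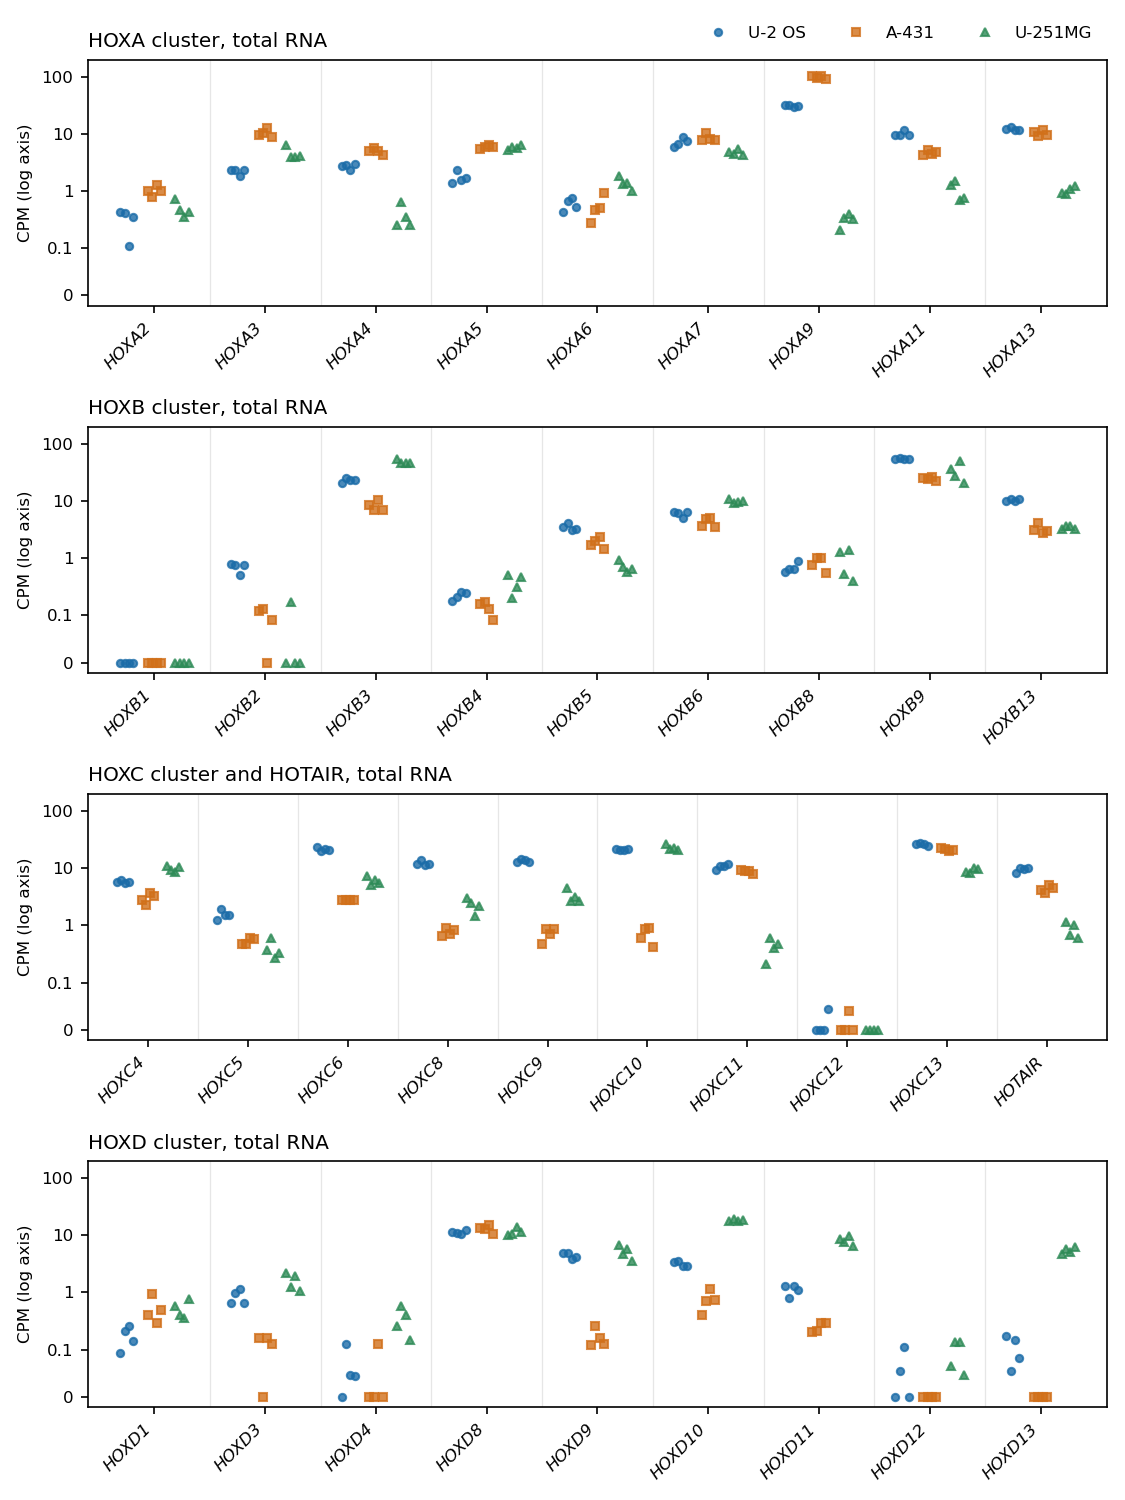
CPM of each member in each total RNA library on a logarithmic axis (0 drawn at the bottom), with 1 panel per cluster and 1 colour per cell line (4 libraries each). HOXA9 lies near 100 CPM in A-431 and below 1 CPM in U-251MG. HOXD10, HOXD11 and HOXD13 are highest in U-251MG, HOXD9 is as high there as in U-2 OS, and HOXD8 overlaps between all lines.

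In total RNA, 20 of 32 members tested differed between U-2 OS and A-431, 16 of them higher in U-2 OS (22.4% of all genes were called in that direction) and 4 higher in A-431 (16.4%). Called in either direction were 38.8% of 18610 genes. Between U-251MG and A-431, 13 members were higher in U-251MG (14.6% of all genes) and 9 in A-431 (16.4%), with 31.0% of genes called in all. Between U-251MG and U-2 OS, 7 were higher (13.6%) and 14 lower (22.1%) in U-251MG, with 35.7% called in all. The median log2 ratio of the members was 1.01 for U-2 OS over A-431, 0.01 for U-251MG over A-431 and -0.30 for U-251MG over U-2 OS, against 0.07, 0.00 and -0.09 over all genes tested. The libraries of no 2 lines overlapped for 16 of the 32 members tested (50%), against 38.5% of all genes tested. With RPKM in place of counts the calls fell from 20 to 12, from 22 to 13 and from 21 to 11 (pseudocount 0.1).

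The largest difference within HOXA was that of HOXA9. This gene, a posterior gene best known from blood progenitors and leukaemia, was the member with the highest level in any line. In A-431 total RNA libraries 9 to 12 it was at 102, 97.7, 105 and 91.7 CPM. In U-2 OS libraries 1 to 4 it was at 32.5, 33.0, 30.2 and 31.7 CPM, and in U-251MG libraries 5 to 8 at 0.208, 0.339, 0.401 and 0.325 CPM. The 3 lines did not overlap, and U-251MG held between 4 and 10 reads of the gene per library. The log2 ratio was -1.67 ± 0.07 (SE) for U-2 OS over A-431 (adjusted p = 2.9e-17) and -8.27 ± 0.12 for U-251MG over A-431 (1.8e-26).

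HOXA11 and HOXA13, genes of limb and urogenital patterning, were also lowest in U-251MG. HOXA13 was at 12.3, 13.1, 11.6 and 12.01 CPM in U-2 OS, at 10.8, 9.14, 11.7 and 9.74 in A-431 and at 0.936, 0.882, 1.11 and 1.26 in U-251MG. U-2 OS and A-431 overlapped (log2 ratio 0.22 ± 0.11, adjusted p = 0.063), and both lay above U-251MG by a log2 ratio of 3.32 ± 0.15 in A-431 and 3.54 ± 0.14 in U-2 OS. HOXA11, of whose exons 27.2% overlap the antisense gene HOXA11-AS, was at 10.2 ± 1.11 CPM (SD, n = 4) in U-2 OS, 4.74 ± 0.40 in A-431 and 1.07 ± 0.40 in U-251MG, all lines differing.

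The anterior and central HOXA genes followed another order. HOXA3, which acts in the pharyngeal arches, was at 9.80, 10.7, 12.99 and 9.03 CPM in A-431, at 6.45, 3.94, 3.96 and 4.08 in U-251MG and at 2.37, 2.34, 1.86 and 2.37 in U-2 OS. All A-431 libraries lay above all others, and all 3 comparisons were called (log2 ratio U-251MG over U-2 OS 1.02 ± 0.18, adjusted p = 1.2e-05). HOXA5, needed for lung and skeletal development, was at 5.90 CPM on average in U-251MG and at 6.03 in A-431 (log2 ratio -0.06 ± 0.13, adjusted p = 0.72), and was lower in U-2 OS (1.78 CPM). HOXA4 was at 5.04 CPM in A-431, at 2.76 in U-2 OS and at 0.378 in U-251MG. HOXA7, with 4.76 to 8.69 CPM by line, was not called in any comparison of total RNA. HOXA2, a gene of the hindbrain, and HOXA6 stayed below 1.4 CPM on average in each line of total RNA, and were called higher in A-431 than in U-2 OS and higher in U-251MG than in both other lines, respectively.

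Of the HOXB genes, HOXB9 and HOXB3 had the highest CPM in every line. HOXB9, the posterior gene with the highest CPM per kb in U-2 OS and U-251MG, was at 55.0, 58.3, 55.3 and 55.8 CPM in U-2 OS and at 25.4, 24.5, 26.1 and 22.5 in A-431. In U-251MG it was at 37.1, 28.2, 49.8 and 21.1 CPM. The U-251MG libraries thus spread widely and overlapped those of A-431. The ratio of U-2 OS to A-431 was called (log2 1.16 ± 0.21, adjusted p = 0.00043), and the 2 ratios with U-251MG were not (adjusted p = 0.096 against A-431 and 0.0081 against U-2 OS).

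HOXB3, an anterior gene of the hindbrain, was at 55.0, 47.5, 46.3 and 47.4 CPM in U-251MG, at 20.9, 25.0, 23.2 and 23.1 in U-2 OS and at 8.55, 7.01, 10.4 and 7.11 in A-431. The lines did not overlap, and each differed from the others (log2 ratio U-251MG over A-431 2.53 ± 0.11, adjusted p = 3.6e-17, and U-251MG over U-2 OS 1.08 ± 0.10, adjusted p = 2.5e-10). Its annotated span reaches over HOXB4 and HOXB5 into HOXB6, and 11.7% of its exon sequence is shared with HOXB4, HOXB6 and antisense genes.

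Of the other HOXB genes, HOXB13, a posterior gene known from the prostate, was at 9.93, 10.8, 10.2 and 11.1 CPM in U-2 OS, and between 2.83 and 4.12 CPM in all libraries of A-431 and U-251MG (log2 ratio U-2 OS over A-431 1.67 ± 0.13, adjusted p = 6.8e-12). HOXB5 was lowest in U-251MG (0.719 CPM, with 3.54 in U-2 OS and 1.89 in A-431), and HOXB6 highest there (10.1 CPM, with 6.09 and 4.35). Of the HOXB6 exon sequence 33.0% is shared with HOXB3 and an antisense gene. HOXB2 was at 0.709 CPM in U-2 OS and below 0.1 CPM on average in the others. HOXB8, the member with the near-complete miR-196 window, stayed between 0.397 and 1.43 CPM in all total RNA libraries, and no comparison of total RNA was called.

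In HOXC the genes from HOXC6 to HOXC10 were lowest in A-431 total RNA, and of these only HOXC10 was alike in the other lines. HOXC10, a gene of the lower trunk and hindlimb, was at 21.6, 21.3, 20.5 and 21.9 CPM in U-2 OS, at 26.5, 21.4, 22.9 and 20.9 in U-251MG and at 0.602, 0.850, 0.892 and 0.418 in A-431. The libraries of U-2 OS and U-251MG overlapped (log2 ratio 0.09 ± 0.10, adjusted p = 0.40), and every library of both lay far above A-431 (log2 ratio 4.89 ± 0.15 for U-2 OS, adjusted p = 3.8e-20, and 4.99 ± 0.15 for U-251MG, 2.5e-20).

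HOXC6, HOXC8 and HOXC9, which pattern the thorax and forelimb level, were highest in U-2 OS, lower in U-251MG and lowest in A-431. HOXC9 was at 13.1, 14.3, 13.8 and 12.7 CPM in U-2 OS, at 4.57, 2.71, 3.21 and 2.71 in U-251MG and at 0.482, 0.850, 0.701 and 0.878 in A-431. HOXC8 was at 12, 14.1, 11.3 and 11.7 CPM in U-2 OS, at 2.96, 2.51, 1.47 and 2.17 in U-251MG and at 0.642, 0.892, 0.701 and 0.836 in A-431. HOXC6 was at 21.6 ± 1.40, 6.05 ± 1.01 and 2.77 ± 0.03 CPM (SD, n = 4 each) in the same order. For each of these genes the lines did not overlap and the 3 ratios were called, with a log2 ratio of U-2 OS over A-431 of 2.94 ± 0.12 for HOXC6, 3.98 ± 0.18 for HOXC8 and 4.19 ± 0.18 for HOXC9.

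The posterior HOXC11 went the other way in U-251MG. It was at 9.40, 11.1, 11.1 and 11.9 CPM in U-2 OS, at 9.39, 9.05, 8.85 and 8.03 in A-431 and at 0.208, 0.611, 0.401 and 0.469 in U-251MG. The log2 ratio of U-251MG over A-431 was -4.33 ± 0.18 (adjusted p = 4e-17), while U-2 OS and A-431 differed by 0.28 ± 0.12 (0.034). HOXC13, a gene of hair and nail keratinization, was at 26.4 ± 1.07 CPM in U-2 OS, at 21.6 ± 1.17 in A-431 and at 9.14 ± 0.90 in U-251MG, and only the ratios with U-251MG were called (log2 -1.27 ± 0.09 over A-431). HOXC4, with 17.5% of its exons shared with HOXC6, was highest in U-251MG (9.79 CPM, with 5.81 in U-2 OS and 2.99 in A-431), and HOXC5 did not exceed 1.53 CPM on average in a line.

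HOTAIR lies at chr12:54356092-54368740 on the minus strand, after HOXC12 and overlapping the start of the HOXC11 gene, with 3.113 kb of exon, none of it shared with exons of another gene. In total RNA it was at 8.44, 10.2, 9.73 and 10.3 CPM in U-2 OS libraries 1 to 4, at 4.14, 3.70, 5 and 4.43 in A-431 libraries 9 to 12 and at 1.14, 0.679, 1.02 and 0.614 in U-251MG libraries 5 to 8. All U-2 OS libraries lay above all A-431 libraries, and these above all U-251MG libraries. The log2 ratio was 1.13 ± 0.14 for U-2 OS over A-431 (adjusted p = 3.4e-08), -2.40 ± 0.19 for U-251MG over A-431 (1.3e-11) and -3.53 ± 0.17 for U-251MG over U-2 OS (1.1e-15). Per kb of exon its level in U-2 OS was 3.10 CPM, close to its neighbour HOXC11 at 3.33. In A-431 the values were 1.39 and 2.71, and in U-251MG 0.278 and 0.129. HOTAIR and HOXC11 lie on opposite strands and were both lowest in U-251MG, whereas HOXC10 on the other side of HOXC11 was not.

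The posterior HOXD genes HOXD10, HOXD11 and HOXD13 were highest in U-251MG. HOXD12, at most at 0.136 CPM in a total RNA library, had too few counts to be tested. HOXD13, the last gene of the cluster, involved in digit formation, was at 4.73, 5.74, 5.12 and 6.28 CPM in U-251MG, had 0 counts in every A-431 library, and in U-2 OS had 4, 1, 4 and 2 counts (at most 0.176 CPM). Set against 3 counts per library, the U-251MG mean was at least 46.6-fold higher than A-431. The difference between U-2 OS and A-431 is among the 16 called, but its counts were too few for a ratio. HOXD10 and HOXD11 were at 18.2 ± 0.68 and 8.11 ± 1.34 CPM in U-251MG (SD, n = 4), at 3.18 ± 0.30 and 1.12 ± 0.22 in U-2 OS and at 0.756 ± 0.31 and 0.248 ± 0.05 in A-431. Neither gene overlapped between lines, and the log2 ratio of U-251MG over A-431 was 4.52 ± 0.17 for HOXD10 (adjusted p = 1.9e-18) and 4.96 ± 0.22 for HOXD11 (1.5e-16). The 2 genes share 18.2% and 21.4% of their exon sequence with each other.

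HOXD9 was at 4.96, 4.81, 3.83 and 4.22 CPM in U-2 OS, at 6.65, 4.65, 5.75 and 3.54 in U-251MG and at 0.120, 0.255, 0.159 and 0.125 in A-431. The libraries of U-2 OS overlapped those of U-251MG, and A-431 lay below both (log2 ratio 4.70 ± 0.29 and 4.88 ± 0.28). The A-431 libraries held only 3, 6, 5 and 3 counts of HOXD9, so the size of these ratios is uncertain. In total RNA HOXD8 was the exception in the cluster, lying at 11.2 ± 0.76 CPM in U-2 OS, at 11.6 ± 1.66 in U-251MG and at 12.9 ± 1.85 in A-431. Its libraries overlapped between all lines, and its log2 ratios lay between -0.24 ± 0.11 and 0.04 ± 0.12 with no adjusted p below 0.061. Of its exon sequence 24.4% is shared with HOXD-AS2. The anterior HOXD1, HOXD3 and HOXD4 did not exceed 1.60 CPM on average in any line of total RNA.

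**Figure D2:**
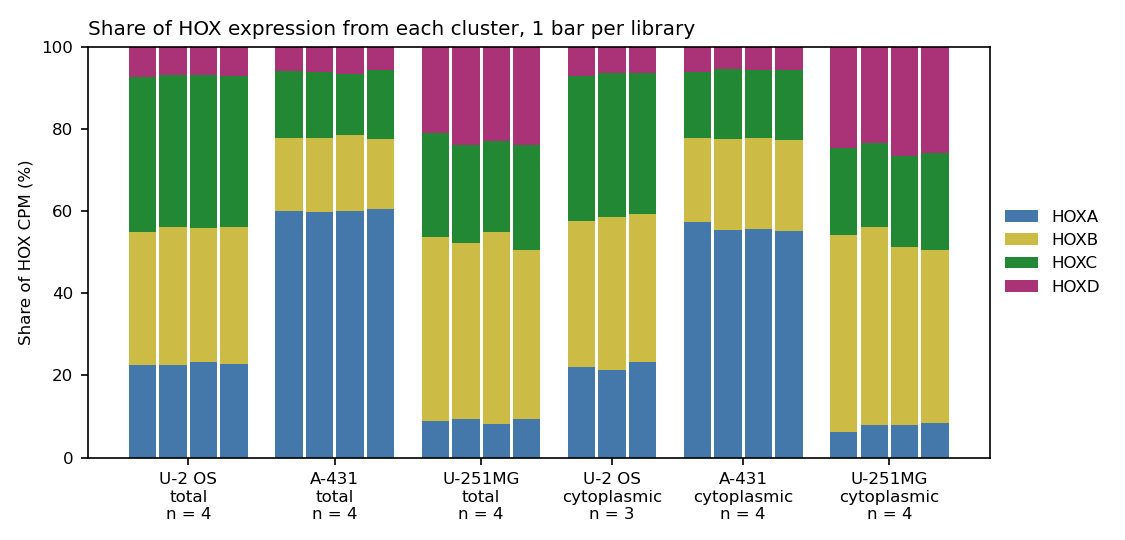
Share of each cluster in the summed CPM of the 36 HOX genes with a row, in percent, as 1 stacked bar for each of the 23 libraries used. The CPM were not divided by exon length, so longer genes weigh more. HOXA makes up about 60% in A-431 and under 10% in U-251MG, HOXB is the largest share in U-251MG and HOXC in U-2 OS total RNA.

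The summed level of the HOX genes differed less than its make-up. In total RNA it was at 304.8 ± 7.41 CPM in U-2 OS (SD, n = 4), at 243.5 ± 14.9 in A-431 and at 224 ± 20.2 in U-251MG, not counting HOXA10 and HOXB7. HOXA was at 60.1 ± 0.28% of it in A-431, at 22.8 ± 0.27% in U-2 OS and at 8.94 ± 0.56% in U-251MG. HOXB was at 17.8 ± 0.57% in A-431, at 33.1 ± 0.59% in U-2 OS and at 43.9 ± 2.40% in U-251MG. HOXC was at 16.02 ± 0.87%, 37.2 ± 0.45% and 24.3 ± 1.57% in the same order. HOXD was at 6.05 ± 0.47% in A-431, at 6.94 ± 0.26% in U-2 OS and at 22.9 ± 1.33% in U-251MG. The shares of HOXA, HOXB and HOXC did not overlap between lines, and neither did that of HOXD in U-251MG with the others. HOXA9 alone supplies 99.3 ± 6.01 of the 146.4 CPM of HOXA in A-431. The CPM were summed without division by exon length. Longer genes, such as HOXB3 with 7.425 kb of exon, therefore weigh more, and these are not shares per kb.

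The cytoplasmic libraries gave the lines a like order for many members, with fewer called between U-2 OS and A-431. HOXB3, for example, had a log2 ratio of U-2 OS over A-431 of 0.52 ± 0.07, below the minimum of 1, against 1.45 ± 0.11 in total RNA. Of 33 members tested, 9 were higher in U-2 OS and 6 in A-431 (21.7% and 17.3% of 19344 genes, 39% in all). Between U-251MG and A-431 the members numbered 12 and 11 (15.1% and 16.8%, 32.0% in all), and between U-251MG and U-2 OS 9 and 13 (13.9% and 21.1%, 35.0% in all). HOTAIR was at 8.87, 9.22 and 10.2 CPM in U-2 OS, at 5.43, 5.12, 6.39 and 5.98 in A-431 and at 1.12, 0.838, 0.998 and 0.924 in U-251MG. The order was that of total RNA without overlap, but the log2 ratio of U-2 OS over A-431 was 0.70 ± 0.11 (adjusted p = 8.2e-06) and so below the minimum of 1. HOXB8 was called only here, lower in U-2 OS (0.513 CPM) than in A-431 (1.29) and U-251MG (1.22). The difference of its cytoplasmic from its total RNA ratios, tested as an interaction, was 1.06 on the log2 scale for U-2 OS against A-431 (adjusted p = 0.28) and -0.94 for U-251MG against U-2 OS (0.28). HOXB9 in cytoplasmic U-251MG was at 50.3 and 49.0 CPM in the libraries of the second flow cell and at 27.6 and 29.1 CPM in those of the first. Its U-251MG total RNA libraries, all run on the first, also ranged from 21.1 to 49.8 CPM. The part of the flow cell was not tested.

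Total and cytoplasmic RNA were compared within each line, a total over cytoplasmic ratio being called at an adjusted p below 0.001. MALAT1 and NEAT1, RNAs known to stay in the nucleus, had a higher mean in the libraries labelled cytoplasmic than in those labelled total in every line. MALAT1 ranged from 23.6 to 32.9 CPM in total and from 48.9 to 58.2 in cytoplasmic U-2 OS libraries (log2 ratio -0.82 ± 0.10, adjusted p = 3.6e-05), with a log2 ratio of -1.36 ± 0.14 in U-251MG (9.4e-05) and -1.42 ± 0.29 in A-431 (0.0055). It ranged from 14.9 to 24.8 CPM in total and from 45.2 to 58.0 in cytoplasmic U-251MG libraries, and from 8.37 to 18.5 and from 25.0 to 39.2 in those of A-431. NEAT1 had a log2 ratio at -0.54 ± 0.18 in U-2 OS (0.084), at -1.35 ± 0.32 in U-251MG (0.013) and at -1.68 ± 0.22 in A-431 (0.00077). These RNAs thus went against the labels. The cause was not tested, and the directions given next are those of the labels. All total RNA libraries were run on 1 flow cell and all cytoplasmic A-431 libraries on another, so that fraction and flow cell cannot be told apart in A-431. Of the cytoplasmic libraries used, 1 of U-2 OS and 2 of U-251MG were run with the total RNA.

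The share of members called between the fractions was below that of all genes in U-251MG and A-431, but not in U-2 OS. In U-2 OS 3 of 29 members tested (10.3%) were called, all higher in total RNA. Of 18049 genes there, 4.75% were called higher in total and 3.61% higher in cytoplasmic RNA, 8.36% in all. In U-251MG 1 of 31 members (3.23%) was called, higher in cytoplasmic RNA (6.98% of 16128 genes, with 5.93% higher in total RNA and 12.9% in all). In A-431 it was 1 of 27 (3.7%), higher in cytoplasmic RNA (9.51% of 16376 genes, with 10.2% higher in total RNA and 19.7% in all). The members' median log2 ratio was 0.14 in U-2 OS, with 24 above 0 and 5 below, it was -0.14 for U-251MG (12 and 19) and -0.19 for A-431 (3 and 24). Over all genes the medians were between -0.02 and 0.01.

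**Figure D3:**
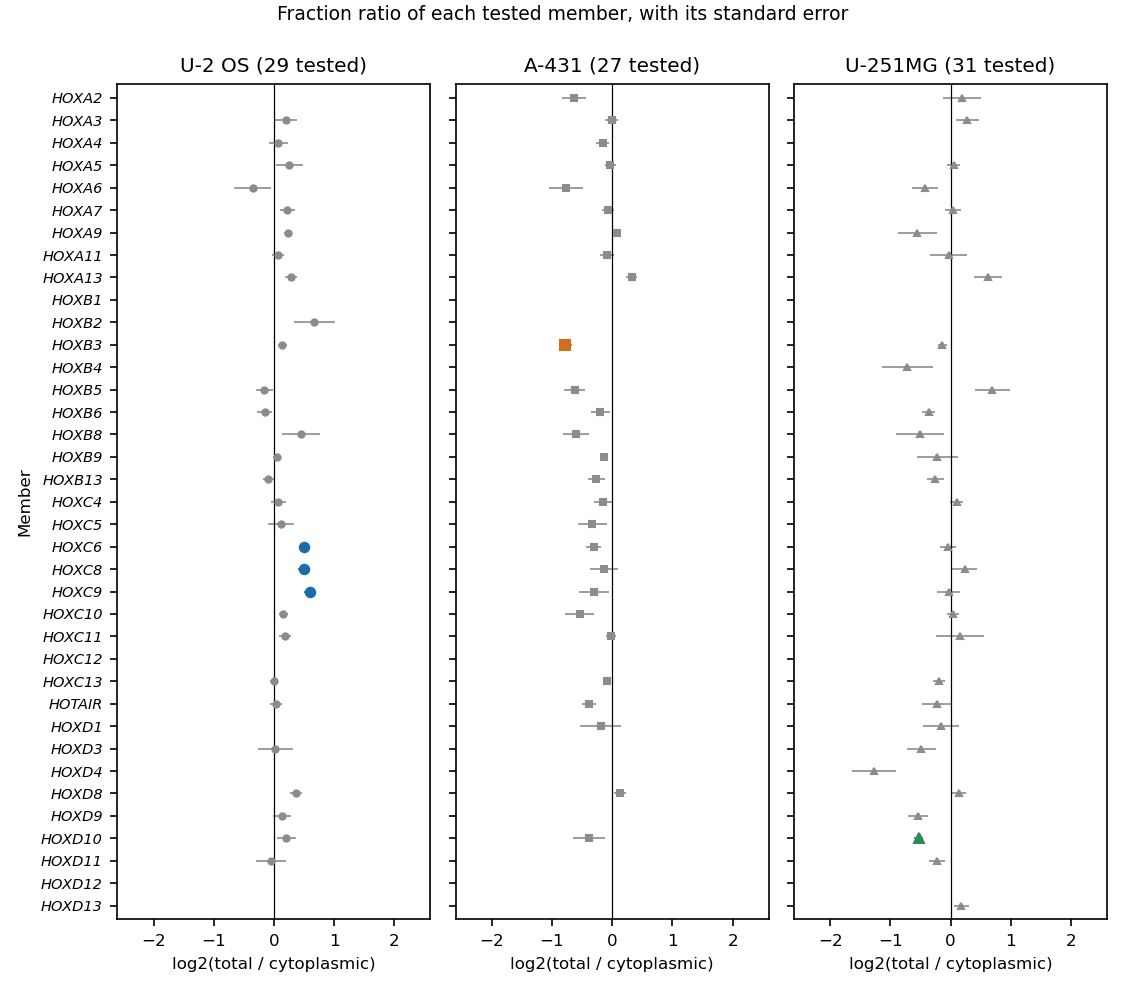
Log2 ratio of total over cytoplasmic RNA for each member tested, with bars of ± 1 SE, in 1 panel per cell line. Coloured points passed an adjusted p below 0.001: HOXC6, HOXC8 and HOXC9 in U-2 OS between 0.50 and 0.60, HOXD10 in U-251MG at -0.53 and HOXB3 in A-431 at -0.78.

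The members called in U-2 OS were neighbours in HOXC. HOXC9 was at 13.1, 14.3, 13.8 and 12.7 CPM in total and at 10.3, 8.15 and 8.25 CPM in cytoplasmic RNA (log2 ratio 0.60 ± 0.10, adjusted p = 2.3e-05). HOXC8 was at 12, 14.1, 11.3 and 11.7 CPM in total and at 9.30, 8.29 and 8.43 in cytoplasmic RNA (0.50 ± 0.10, 0.00024). HOXC6 was at 23.5, 20.5, 21.7 and 20.6 CPM in total and at 15.9, 15.3 and 14.5 in cytoplasmic RNA (0.50 ± 0.08, 1.3e-05). The fractions did not overlap for any of them. HOXC6 and HOXC9 share exon sequence (16.1% and 9.78% of their exons overlap other genes), HOXC8 shares none. Within the first flow cell, against the single cytoplasmic library there, which was assumed to vary like the others, the log2 ratios were 0.43 (adjusted p = 0.022), 0.38 (0.11) and 0.37 (0.094) for HOXC6, HOXC8 and HOXC9, and no member was called. In 1 model over all groups their adjusted p was 0.0014, 0.011 and 0.0049, and with RPKM no member was called and HOXC8 turned sign (log2 -1.181 with a pseudocount of 0.1).

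HOXD10, the gene of the cluster with the highest level in U-251MG, was at 17.9, 19.1, 17.5 and 18.4 CPM in its total and at 27.8, 24.2, 25.4 and 26.1 CPM in its cytoplasmic RNA (log2 ratio -0.53 ± 0.08, adjusted p = 0.00024). All cytoplasmic libraries were higher, and within the first flow cell the ratio was -0.52 (adjusted p = 0.00304), short of the threshold. HOXB3 in A-431 was at 8.55, 7.01, 10.4 and 7.11 CPM in total and at 14.2, 14.1, 15.4 and 14.1 CPM in cytoplasmic RNA (-0.78 ± 0.11, adjusted p = 2.8e-05), again without overlap.

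HOTAIR was not called in any line. Its log2 ratio was at 0.04 in U-2 OS (adjusted p = 0.82), at -0.22 in U-251MG (0.49) and at -0.38 in A-431 (0.013). In A-431 the cytoplasmic libraries at 5.12 to 6.39 CPM lay above those of total RNA at 3.70 to 5, and in the other lines the fractions overlapped. With library 13 included the U-2 OS ratio was -0.122. HOTAIR is mainly described as a nuclear RNA. Its mean level was 9.45 CPM in cytoplasmic and 9.65 in total U-2 OS libraries, against 0.970 and 0.865 for U-251MG, and against 5.73 and 4.32 for A-431.

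**Figure D4:**
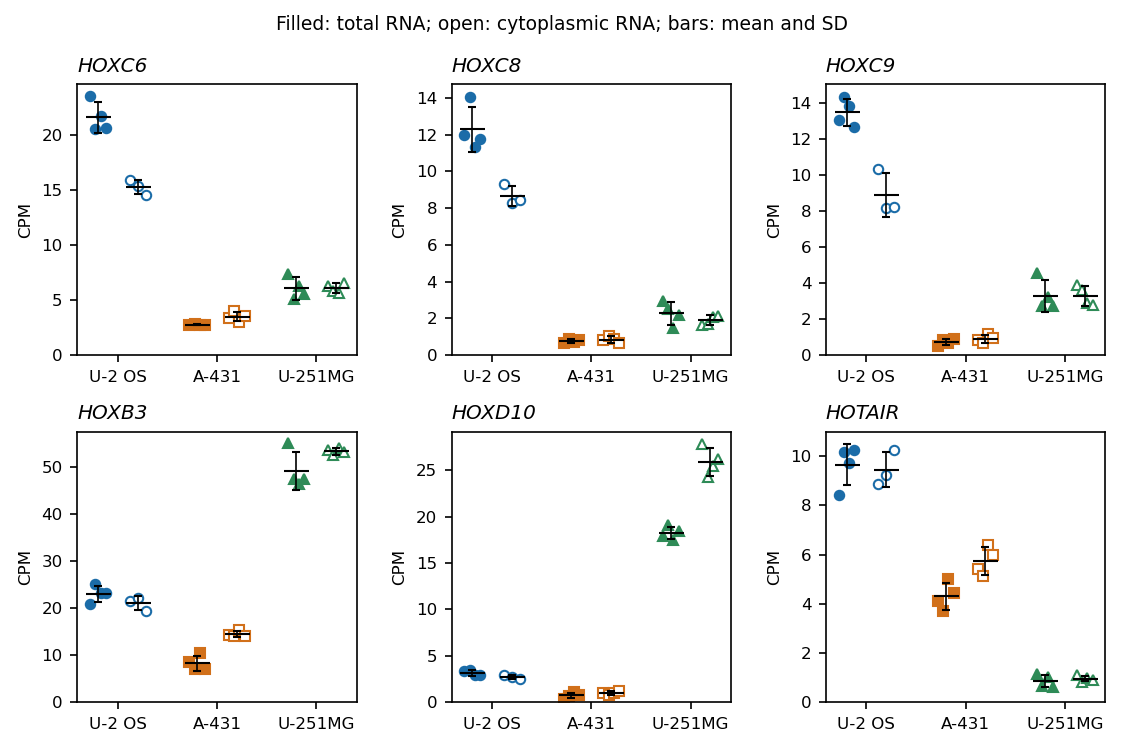
CPM per library in total (filled) and cytoplasmic (open) RNA of the 3 lines for HOXC6, HOXC8, HOXC9, HOXB3, HOXD10 and HOTAIR, with the mean and SD of each group. The fractions separate for HOXC6, HOXC8 and HOXC9 in U-2 OS, for HOXB3, HOXC6 and HOTAIR in A-431 and for HOXD10 in U-251MG. In A-431 HOXC6 and HOTAIR were higher in cytoplasmic RNA and were not called. HOTAIR changes more between lines than between fractions.

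Whether the fraction ratio itself differed between lines was tested as an interaction in 1 model over all groups, called at an adjusted p below 0.05. Of 34 members tested, 2 differed between U-2 OS and A-431 (2.12% of 19948 genes were called, 1.17% with the ratio higher in U-2 OS and 0.947% in A-431), HOXB3 with a difference of log2 ratios of 0.93 (adjusted p = 0.00011) and HOXC6 with 0.82 (0.0034). HOXB3 also differed between U-251MG and A-431 (0.67, adjusted p = 0.010, against 0.16% of genes in either and 0.0401% in this direction), and HOXD10 between U-251MG and U-2 OS (-0.70, adjusted p = 0.041, against 1.67% of genes in either and 0.762% in this direction). For HOTAIR the differences were 0.43 (0.22), 0.19 (0.91) and -0.25 (0.61) in the same order. The HOXD10 difference lost its call when any of 12 libraries was left out.

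Of the other non-coding RNAs of the clusters, HOTAIRM1, transcribed at the anterior end of HOXA, was at 34.1 ± 0.86 CPM in A-431 total RNA, at 4.11 ± 0.58 in U-2 OS and at 3.06 ± 0.29 in U-251MG (SD, n = 4). HAGLR, antisense to the anterior HOXD genes, was at 24.6 ± 2.16, 5.25 ± 0.53 and 19.9 ± 1.39 CPM. HOTTIP, beside HOXA13, did not exceed 0.419 CPM in any total RNA library. Of 9 such genes tested in total RNA, 4 were higher and 3 lower in U-2 OS than in A-431. Against A-431, 1 was higher and 6 were lower in U-251MG, and against U-2 OS 1 and 3. The shares called were 77.8%, 77.8% and 44.4% of the 9, beside 38.8%, 31.0% and 35.7% of all genes in the same 3 comparisons. HOTAIRM1 was also called in the interaction test, with a higher total over cytoplasmic ratio in U-2 OS than in A-431 (0.62, adjusted p = 0.012) and U-251MG (-0.68 for U-251MG over U-2 OS, 0.027).

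TALE homeodomain proteins, MEIS1 among them, bind DNA together with HOX proteins. Of 8 tested in total RNA, 3 were higher and 2 lower in U-2 OS than in A-431. In U-251MG 4 were higher and 1 lower than in A-431, and 2 were higher and 1 lower than in U-2 OS. In the same order 62.5%, 62.5% and 37.5% of the 8 were called, beside 38.8%, 31.0% and 35.7% of all genes. MEIS1 was at 31.4 ± 2.66 CPM in U-2 OS, at 17.8 ± 1.93 in U-251MG and at 1.45 ± 0.33 in A-431. MEIS3 was at 19.5 ± 2.15 CPM in U-2 OS and at 0.906 ± 0.29 in U-251MG, and had 0 counts in all A-431 libraries of total RNA.

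Of 26 Polycomb genes tested, 5 were higher and 4 lower in U-2 OS than in A-431. In U-251MG, 4 were higher and 1 lower than in A-431, with 4 higher and 5 lower than in U-2 OS. These calls made up 34.6%, 19.2% and 34.6% of the list, below the shares of all genes (38.8%, 31.0% and 35.7%). CBX2, a chromodomain reader of the Polycomb mark, was at 108.4 ± 7.39 CPM in U-2 OS, at 16.6 ± 2.26 in A-431 and at 10.5 ± 1.69 in U-251MG. The methyltransferase EZH2 was lowest in U-2 OS with 36.2 ± 2.22 CPM, against 83.0 ± 3.62 in A-431 and 102.7 ± 7.06 in U-251MG. Of 12 Trithorax genes, which oppose Polycomb, at most 1 was called in each direction of a comparison (16.7%, 8.33% and 8.33% in either direction, also below all genes). The demethylase genes and cofactors described as HOTAIR partners (KDM1A, RCOR1 and REST) were expressed in every line at 61.3 CPM or more on average, and 1 call was made among them in total RNA, KDM1A, at 241.4 CPM in A-431 and 110.7 in U-251MG.

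Retinoic acid is an inducer of HOX genes in the embryo. Of 9 genes of its pathway tested, 4 were higher and 1 lower in U-2 OS than in A-431. Relative to A-431, U-251MG had 2 higher and 3 lower, and relative to U-2 OS 2 higher and 5 lower. The shares called were 55.6%, 55.6% and 77.8% of the 9 genes, beside 38.8%, 31.0% and 35.7% of all genes. ALDH1A3, an enzyme that makes retinoic acid, was at 559.3 ± 98.9 CPM in A-431, at 10.7 ± 1.38 in U-251MG and at 0.271 ± 0.14 in U-2 OS. ALDH1A1, which makes it too, was low in every line but called higher in U-2 OS than in A-431 (0.751 ± 0.19 and 0.158 ± 0.06 CPM, adjusted p = 1.6e-05). The retinoic acid receptor RARB was at 32.2 ± 4.08 CPM in U-251MG, at 0.674 ± 0.17 in U-2 OS and at 0.0597 ± 0.03 in A-431. CYP26B1, which degrades retinoic acid, was at 34.5 ± 1.35 CPM in U-2 OS, at 8.23 ± 0.97 in U-251MG and at 0.467 ± 0.17 in A-431. CDX2, a HOX regulator of the gut, was at 1.48 ± 0.21 CPM in U-2 OS and had 0 counts in the other lines' total RNA. Of 9 genes flanking the clusters that were tested, 1 to 2 were called in a direction, apart from none higher in U-251MG than in A-431 (22.2%, 22.2% and 33.3% in either direction, below all genes). SKAP2, next to HOXA, was at 147.7 ± 12.1 CPM in A-431, at 65.6 ± 3.47 in U-251MG and at 0.20 ± 0.08 in U-2 OS.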

How the data were processed

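Poly(A)-selected RNA was sequenced from 3 lines. Alignment by the authors was to hg19, by TopHat 1.1.4 with SAMtools 0.1.8. The counts, by HTSeq 0.4.6 over Ensembl genes, kept reads wholly within the exons of 1 gene and ignored strand. The deposited counts are whole numbers and were used unnormalized. The deposited RPKM values came from rpkmforgenes. They were used as deposited to say which members were expressed and, as log2(RPKM + 0.1), as an alternative. Libraries were grouped by their labels. Of 24 libraries, 23 matched an entry in the study's table of read totals, and their flow cells were taken from its summary of the sequencing run.

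Entries that name no gene were removed. Tests were robust quasi-likelihood tests of edgeR 4.0.16 (R 4.3.3), after filterByExpr and TMM scaling, with Benjamini-Hochberg adjustment over all genes tested. Fractions were fitted within a line, lines within a fraction, and interactions over all groups. P-values set a difference against the spread between these libraries, estimated with information shared across genes. They do not speak to the spread between tumours or tissues. The members and all lists were chosen with earlier results of these data known. All members with a row were described, and at most 4 genes of another list were named. Zero counts were set against 3 counts per library, which covers counting error only. Alternatives were DESeq2 1.42.0, other scaling, filters and thresholds, RPKM, flow cells, a replicate block and libraries left out in turn. The scripts were tested on simulated data.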

Additional observations from a re-analysis of the deposited data

Results flagged for a closer look

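In 8 of 125 groups of 4 libraries looked at, the highest or lowest library stood apart by Dixon's 95% limit, and chance flags about 1 in 20 groups. In U-2 OS total RNA, library 3 was lowest for HOXA3 (1.86 CPM, others 2.34 to 2.37), HOXB2 (0.51 CPM, others 0.766 to 0.791) and HOXB6 (5.18 CPM, others 6.30 to 6.46), and highest for HOXA11 (11.9 CPM, others 9.49 to 9.83). In U-251MG total RNA, library 5 was highest for HOXA3 (6.45 CPM, others 3.94 to 4.08) and HOXB3 (55.0 CPM, others 46.3 to 47.5). In A-431, library 10 was highest for HOXA7 in total RNA (10.4 CPM, others 7.94 to 8.34) and library 23 for HOXB3 in cytoplasmic RNA (15.4 CPM, others 14.1 to 14.2).

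The total over cytoplasmic ratio differed between lines, by the interaction test of edgeR, for HOXB3 (log2 difference 0.93 for U-2 OS over A-431 and 0.67 for U-251MG over A-431), HOXC6 (0.82 for U-2 OS over A-431) and HOXD10 (-0.70 for U-251MG over U-2 OS). All cytoplasmic A-431 libraries were run on another flow cell than the total RNA, and the part of the flow cell in these differences was not tested.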

How the results depend on the processing

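With an RPKM limit of 0.3 or 3, or with CPM per kb, the number of members expressed in each line stayed within 1.5 times the number reported, and it was 28, 22 to 25 (U-251MG) and 21 to 25 (A-431) with libraries left out in turn. The number of members called between fractions in U-2 OS was 0 in 1 model over all groups, 0 with RPKM at either pseudocount (0.1 or 1) and 0 within the first flow cell, 6 at an adjusted p of 0.05, and 1 to 3 with libraries left out (1 without library 15). In U-251MG it was 0 with RPKM at either pseudocount and 0 within the first flow cell, 5 at 0.05, and 0 to 1 with libraries left out (0 without library 6 or 20). In A-431 it was 2 without a filter and 7 at 0.05. Members called between lines with RPKM + 0.1 and RPKM + 1 numbered 12 and 10 (U-2 OS and A-431, total), 13 and 10 (U-251MG and A-431), 11 and 9 (U-251MG and U-2 OS), and in cytoplasmic RNA 9 with RPKM + 0.1 (U-2 OS and A-431), 15 and 12, and 12 and 13. With libraries left out these ranges were 17 to 20, 21 to 22, 19 to 21, 14 to 18, 22 to 24 and 20 to 23. The interactions numbered 2 with DESeq2 for U-251MG against A-431 and 2 for U-251MG against U-2 OS, the latter 0 with all deposited libraries, and with libraries left out 2 to 3, 1 to 2 and 0 to 3. The HOXD10 interaction was lost without library 1, 2, 3, 6, 8, 14, 15, 16, 17, 18, 20 or 23. The sign reversed for HOXC8 between fractions in U-2 OS (log2 -1.181 with RPKM + 0.1, -1.118 with RPKM + 1), for HOTAIR there (-0.002 with RPKM at either pseudocount, -0.122 with all deposited libraries, and from -0.014 without library 14 to 0.098 with others left out in turn) and for HOXA7 in cytoplasmic U-251MG over A-431 (0.019 with RPKM + 0.1, 0.017 with RPKM + 1). The cause was not tested. The library numbers in the labels run from 1 to 24 and no 2 groups share one. The study's table of read totals has its own replicate numbers, and a replicate block on these was added after seeing the data. Deviations from the group mean correlated between same-numbered total and cytoplasmic libraries with r from 0.04 to 0.20 for U-2 OS, from 0.01 to 0.28 for A-431 and from -0.49 to 0.36 for U-251MG. Between differently numbered libraries r was from -0.19 to 0.06 for U-2 OS, from -0.22 to 0.06 for A-431 and from -0.47 to 0.57 for U-251MG. Same-numbered libraries thus tended to the higher values in U-2 OS and A-431, with ranges that overlap, and not in U-251MG. These values do not settle whether the numbers pair the libraries, and the main tests were unpaired. With the block the members called between fractions numbered 3, 1 and 1, as without it, and the interactions 3 (HOXC9 added), 1 and 1. None of the 15 values followed for single members changed its call. Low counts limit, among others, HOXB1, HOXC12, HOXD12, HOXB2 outside U-2 OS, HOXD4 and HOXD13 outside U-251MG, and HOXD9 in A-431.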

Other observations

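Cytoplasmic U-2 OS library 13, left out of the comparisons, had HOTAIR at 13.5 CPM (364 counts), above the 8.44 to 10.3 CPM of the other U-2 OS libraries of both fractions. HOXC8 and HOXC9 were at 7.33 and 8.34 CPM in it, HOXC6 at 17.4 and HOXB3 at 24.2.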
